A study of Mus musculus with 8 samples.

Results

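The genes examined here are 38 mouse genes of homologous recombination, the replication checkpoint and the Fanconi anaemia pathway, taken by symbol from a list. The list was chosen with earlier results of these data known. All 38 were among the 24421 genes of the count table, and all 38 passed the count filter that left 12744 genes for testing. They fall by role into 16 recombination genes, 10 checkpoint genes and 12 Fanconi genes. RNA was sequenced, 1 library each, from 8 samples of haematopoietic stem and progenitor cells (HSPCs), which renew the blood, harvested from mice of a primary transplant. WT_EV (2 libraries) were wild-type cells carrying an empty vector, and dKO_EV (2 libraries) were cells lacking β-catenin (Ctnnb1) and Hoxa9 with the same empty vector. dKO_MUT (2 libraries) were double-knockout cells given a catalytically inactive PRMT1, and dKO_PRMT1 (2 libraries) were double-knockout cells given active PRMT1, an enzyme that dimethylates arginine residues of proteins. Every group is therefore transduced and transplanted. The cell type label calls all 8 libraries dKO, so the groups were read from the titles. For dKO_MUT replicate 2 the genotype label has PRMT2, and its Prmt1 level (1758 CPM) was like that of replicate 1 (1744 CPM). The Cre driver, the deleted exons, the age and number of the mice and the number of cells pooled are not stated in the labels. Nor do the labels say whether replicates came from separate animals, so the p-values reflect the spread of these 8 libraries alone, and that spread may be technical.

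Homologous recombination repairs a double-strand break, or a broken replication fork, by copying the sister chromatid. The MRE11-RAD50-NBS1 complex and CtIP (Rbbp8) open the ends, EXO1 and BLM lengthen the single strand, and BRCA1-BARD1, PALB2 and BRCA2 prepare it for strand exchange. ATM senses the break and ATR, with ATRIP and TOPBP1, senses single-stranded DNA at stalled forks, and they signal through the kinases CHEK2 and CHEK1. The Fanconi proteins remove crosslinks between DNA strands: a core complex with FANCL and UBE2T attaches ubiquitin to the FANCD2-FANCI pair. Loss of this pathway is best known for bone marrow failure, since blood stem cells depend on it. The series title places the study in DNA replication and genomic integrity, and the comparisons below ask whether transcripts of these repair genes differed between the groups. PRMT1 acts on proteins, among them MRE11, and protein methylation is not measured by read counts.

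The libraries held 15531344 to 22329749 counts, of which the 38 genes together took 0.139% to 0.159%. CPM below are counts per 1000000, on TMM-scaled library sizes. Prmt1 was at 188 to 194 CPM in the 4 empty-vector libraries, at 1744 and 1758 CPM in dKO_MUT and at 981 and 976 CPM in dKO_PRMT1, so the inactive construct had the higher RNA level. Hoxa9 was at 18.2 and 17.2 CPM in WT_EV and between 1.87 and 5.79 CPM in the 6 dKO libraries. Ctnnb1 fell by only 0.23 ± 0.04 on the log2 scale in dKO_EV (adjusted p = 6.47e-05), and reads counted over all exons are no check of a deletion whose exons are not known. The progenitor markers Kit (137 to 171 CPM) and Cd34 (105 to 162 CPM) and the leukocyte marker Ptprc were present in every library. The summed level of 14 neutrophil granule genes was 18161 and 18173 CPM in WT_EV, 25262 and 26326 CPM in dKO_EV, and 32467 to 33423 CPM in dKO_MUT and dKO_PRMT1. Of these 14, 12 rose and 1 fell in dKO_EV against WT_EV. Although their sums were alike in dKO_MUT and dKO_PRMT1, 4 of the 14 rose and 8 fell in dKO_PRMT1 against dKO_MUT. The summed level of 12 monocyte and macrophage genes, most of it from Ctsb, Gpnmb and Lpl, was 7297 and 7416 CPM in WT_EV, 5718 and 6047 CPM in dKO_EV, and 4053 to 4166 CPM in the other groups. Of these 12, 8 fell and 0 rose in dKO_EV against WT_EV, and 8 fell and 2 rose in dKO_PRMT1 against dKO_EV. The summed level of 9 mast cell, basophil and eosinophil genes was 1487 and 1519 CPM in WT_EV, 926 to 1004 CPM in dKO_EV and dKO_MUT, and 672 and 688 CPM in dKO_PRMT1, with 6 of the 9 lower in dKO_PRMT1 than in dKO_MUT and 1 higher. That of 8 megakaryocyte and platelet genes, most of it from Thbs1, was 893 to 970.3 CPM in the empty-vector libraries and 569.9 to 635 CPM in the 4 others. Of these 8, 2 rose and 1 fell in dKO_EV against WT_EV, and 0 rose and 5 fell in dKO_PRMT1 against dKO_EV. The 12 progenitor genes summed to 1965 to 2181 CPM, and in dKO_EV against WT_EV 4 of them rose and 5 fell. In dKO_PRMT1 against WT_EV 2 rose and 6 fell, so the sum hides opposite changes. Gata2 was at 246 and 243 CPM in WT_EV and at 125 and 107 CPM in dKO_PRMT1. Spi1, one of the genes with the highest CPM in the sum, was at 326 and 313 CPM in WT_EV and at 389 and 383 CPM in dKO_PRMT1. Of all genes tested, 8.44% were higher and 7.00% lower in dKO_EV against WT_EV, and 5.96% and 8.67% in dKO_PRMT1 against dKO_EV. The shares were 1.43% and 1.68% in dKO_PRMT1 against dKO_MUT, and 11.0% and 12.2% in dKO_PRMT1 against WT_EV. In RNA from mixed cells, fewer cells that express a gene and less of its RNA per cell cannot be told apart, and the part of these markers in the results below was not tested. Both WT_EV libraries expressed Xist (159 and 121 CPM) with 0 counts of the Y-linked Ddx3y, whereas the 6 dKO libraries had 58.2 to 68.5 CPM of Ddx3y and 0 counts of Xist. In any comparison with WT_EV, genotype and animal sex therefore cannot be told apart.

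Levels of different genes are compared as RPKM, CPM per kilobase of gene. The 38 genes had a median of 7.37 RPKM, averaged over the 8 libraries, against 9.78 RPKM over all genes tested, and 12 of the 38 lay above that value. The subset medians were 6.39 RPKM for recombination, 9.03 for the checkpoint and 6.81 for the Fanconi genes. Topbp1, the activator of ATR, stood far above the others at 47.1 RPKM. It was followed by Clspn (18.8 RPKM), the adaptor through which ATR activates CHEK1. The lowest values were those of the strand-exchange factor gene Rad51c (1.80 RPKM) and the motor protein gene Rad54b (1.20 RPKM). Because 58.5% of the counted length of Rad54b is shared with exons of Fsbp on the same strand, its place in the order is uncertain. Some partners in a complex had overlapping levels on this scale and others did not. Mre11a, Rad50 and Nbn, which form the end-binding complex, were at 16.8, 15.8 and 14.4 RPKM, and the library ranges of Mre11a (15.01 to 17.8 RPKM) and Rad50 (15.1 to 16.3 RPKM) overlapped. Fancd2 (8.12 RPKM) and Fanci (6.90 RPKM), partners in the ubiquitinated pair, also had overlapping ranges (7.42 to 9.56 and 6.06 to 7.53 RPKM). Brca1 was higher than its partner Bard1, at 8.58 against 5.87 RPKM, with ranges of 7.24 to 9.30 and 5.53 to 6.48 RPKM that did not overlap. Atrip (8.98 RPKM) was higher than Atr (5.74 RPKM). The apical kinase Atm (3.41 to 4.60 RPKM over the libraries) and the mediator gene Brca2 (mean 3.63 RPKM, range 3.17 to 4.05) were in the lower part of the order, and their ranges overlapped.

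**Figure D1:**
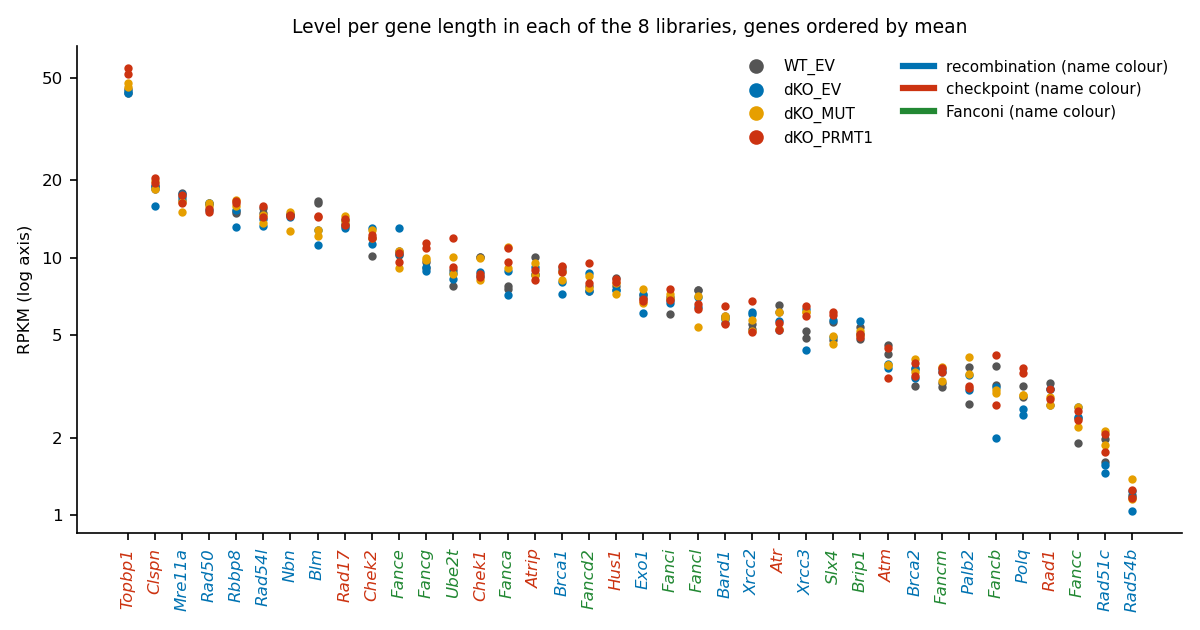
Level of each of the 38 genes in RPKM (log axis) in each of the 8 libraries, with genes ordered by their mean. Points are libraries coloured by group and gene names are coloured by role. For most genes the 8 points lie close together, and Topbp1 stands above the rest at 43.5 to 54.7 RPKM.

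Of the 38 genes, 5 passed an adjusted p of 0.05 in at least 1 of the 6 pairwise comparisons of the groups: Blm, Brca1 and Polq among the recombination genes, Topbp1 among the checkpoint genes and Fanca among the Fanconi genes. The other 33 passed in none. The words rose and fell are used below only for genes past that threshold by the quasi-likelihood test of edgeR, adjusted by the Benjamini-Hochberg method over all 12744 genes, and each difference is a log2 fold change ± its standard error (n = 2 libraries a group). A joint test for any difference among the 4 groups called 4 of the 38 (10.5%), against 28.5% of all genes tested. These were Blm, Topbp1, Fanca and Polq, while Brca1 had an adjusted p of 0.0548. By role the joint test called 2 of 16 recombination genes, 1 of 10 checkpoint genes and 1 of 12 Fanconi genes. Without dKO_EV replicate 1 the joint test called 8 of the 38, with Brca1, Slx4, Rbbp8 and Clspn added, and without dKO_PRMT1 replicate 2 it called 3, with Polq at an adjusted p of 0.0715.

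**Figure D2:**
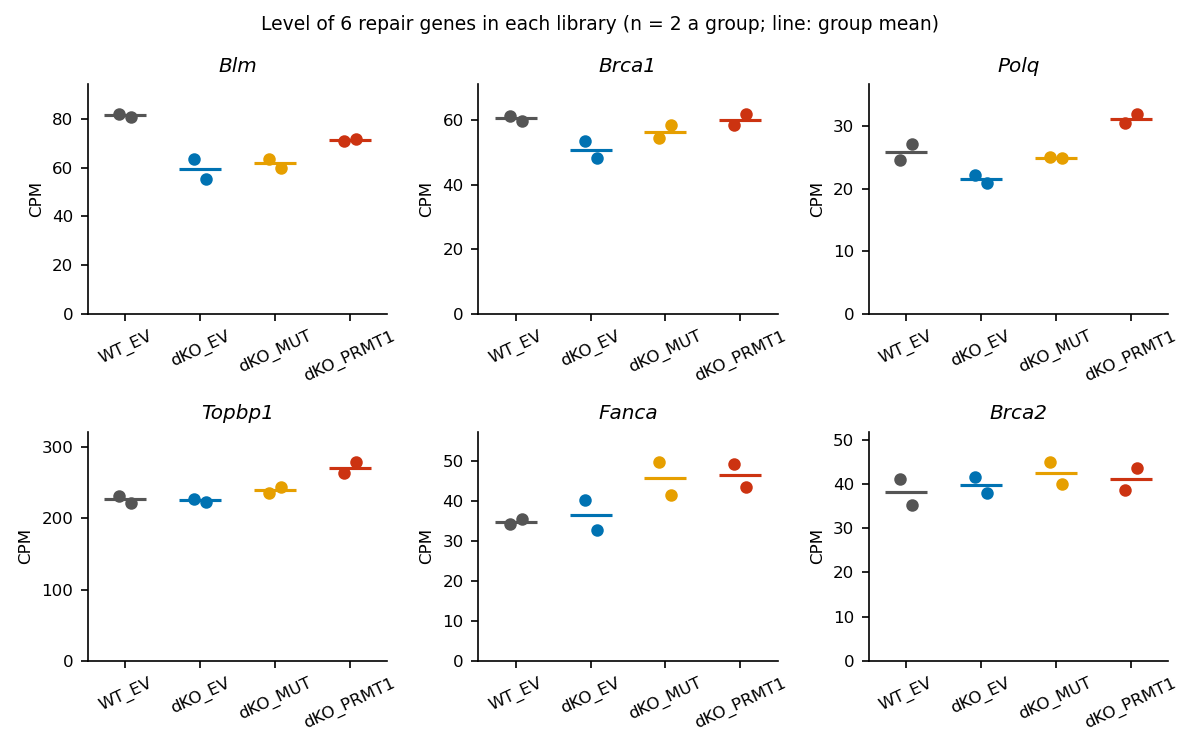
CPM in each library (points, n = 2 a group) and the group mean (line) for the 5 genes called in any comparison and for Brca2, which was called in none. Blm is highest in WT_EV, Polq and Topbp1 are highest in dKO_PRMT1, and the Brca2 points overlap across the groups.

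Blm encodes the RecQ helicase of Bloom syndrome, which lengthens resected ends and dissolves joined recombination intermediates. The gene (chromosome 7, 80454993 to 80535119, minus strand, GRCm38; 23 exon intervals in the deposited table) had 81.9 and 81.0 CPM in WT_EV, 63.5 and 55.4 CPM in dKO_EV, 63.6 and 60.0 CPM in dKO_MUT and, in dKO_PRMT1, 71.1 and 71.9 CPM. Both WT_EV libraries were above all 6 dKO libraries, and both dKO_PRMT1 libraries were above the 4 other dKO libraries. Blm fell by 0.46 ± 0.08 in dKO_EV against WT_EV (adjusted p = 4.15e-05) and by 0.40 ± 0.08 in dKO_MUT against WT_EV (adjusted p = 0.000158). Both calls held under every alternative run. It rose by 0.27 ± 0.08 in dKO_PRMT1 against dKO_EV (adjusted p = 0.0159). Between dKO_PRMT1 and dKO_MUT the difference was 0.21 ± 0.08 (adjusted p = 0.173), and between dKO_PRMT1 and WT_EV it was -0.19 ± 0.08 (adjusted p = 0.0755), neither past the threshold. The difference between dKO_PRMT1 and dKO_EV was 0.17 without dKO_EV replicate 2 (adjusted p = 0.206), 0.28 without dKO_PRMT1 replicate 1 (0.0823) and 0.26 without dKO_PRMT1 replicate 2 (0.117), past the threshold in none of the 3.

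Brca1 encodes the ubiquitin ligase that, with BARD1, favours recombination over end joining. The gene (chromosome 11, 101488764 to 101551955, minus strand) had 61.4 and 59.8 CPM in WT_EV, 53.5 and 48.1 CPM in dKO_EV, 54.4 and 58.5 CPM in dKO_MUT and, in dKO_PRMT1, 58.5 and 61.8 CPM. The dKO_EV libraries were the lowest of the 8, and dKO_PRMT1 overlapped WT_EV. Brca1 fell by 0.26 ± 0.08 in dKO_EV against WT_EV (adjusted p = 0.0326) and rose by 0.25 ± 0.08 in dKO_PRMT1 against dKO_EV (adjusted p = 0.0421). dKO_PRMT1 differed from WT_EV by -0.01 ± 0.08, with a 95% interval of -0.18 to 0.16. The fall was lost without WT_EV replicate 1 (-0.24, adjusted p = 0.205), WT_EV replicate 2 (-0.28, 0.113) or dKO_EV replicate 2 (-0.19, 0.206) and in DESeq2 (0.0512). The rise was lost without either WT_EV library (0.25, adjusted p = 0.0574 each), without dKO_EV replicate 2 (0.17, 0.256), without dKO_PRMT1 replicate 1 (0.29, 0.0922) or replicate 2 (0.21, 0.295) and in DESeq2 (0.0625).

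Polq encodes DNA polymerase theta, which joins resected ends through short homologies and so works beside recombination. The gene (chromosome 16, 37011786 to 37095417, plus strand) had 24.6 and 27.1 CPM in WT_EV, 22.2 and 20.9 CPM in dKO_EV, 25.03 and 24.96 CPM in dKO_MUT and, in dKO_PRMT1, 30.5 and 31.9 CPM. Both dKO_PRMT1 libraries were above the other 6. Polq rose by 0.54 ± 0.12 in dKO_PRMT1 against dKO_EV (adjusted p = 0.00132), the largest change among the 38 genes in that comparison, and this call held under every alternative run. Between dKO_PRMT1 and dKO_MUT the difference was 0.32 ± 0.12 (adjusted p = 0.162), and between dKO_MUT and dKO_EV it was 0.22 ± 0.12 (adjusted p = 0.29).

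The other 13 recombination genes passed in no comparison. Brca2 (chromosome 5, 150522621 to 150570146) had 41.1 and 35.3 CPM in WT_EV, 41.5 and 37.98 CPM in dKO_EV, 45.1 and 40.1 CPM in dKO_MUT and, in dKO_PRMT1, 38.7 and 43.6 CPM. Its 4 groups overlapped, and its difference between dKO_PRMT1 and dKO_EV was 0.05, with a 95% interval of -0.16 to 0.26. Bard1, the partner of BRCA1, ran from 30.1 to 35.3 CPM over the 8 libraries, and Palb2, which bridges BRCA1 and BRCA2, from 10.7 to 16.2 CPM. Of the end-binding complex, Mre11a was at 45.1 to 53.4 CPM, Rad50 at 77.7 to 83.9 CPM and Nbn at 31.6 to 37.6 CPM. Rbbp8, the resection factor CtIP (chromosome 18), had 59.7 and 51.3 CPM in dKO_EV and 63.6 and 65.0 CPM in dKO_PRMT1, a difference of 0.22 ± 0.08 that missed the threshold (adjusted p = 0.0764). It was called there by limma voom and, without dKO_EV replicate 1, by edgeR. dKO_MUT overlapped dKO_PRMT1, at 65.3 and 61.8 CPM, 0.20 ± 0.08 above dKO_EV (adjusted p = 0.125). The nuclease gene Exo1 stood at 33.5 to 41.5 CPM and the strand-exchange motor Rad54l at 41.0 to 48.7 CPM. The strand-exchange factors Rad51c, Xrcc3 and Xrcc2 had low counts, with Rad51c at 4.84 to 7.04 CPM, Xrcc3 at 10.6 to 15.7 CPM and Xrcc2 at 16.6 to 21.9 CPM. The interval of Rad51c in dKO_MUT against dKO_EV, -0.11 to 0.91, was the widest of that comparison. Rad54b ran from 7.32 to 9.79 CPM, and 58.5% of its counted length is shared with exons of Fsbp on the same strand (0.0506 to 0.445 CPM), so its value is uncertain.

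Topbp1 encodes the scaffold that activates ATR and also acts at replication origins. The gene (chromosome 9, 103305327 to 103350427, plus strand) had 231.8 and 222.2 CPM in WT_EV, 227.9 and 222.3 CPM in dKO_EV, 235.0 and 244.0 CPM in dKO_MUT and, in dKO_PRMT1, 263.1 and 279.7 CPM. WT_EV and dKO_EV overlapped, and the dKO_PRMT1 libraries were above the other 6. Topbp1 rose by 0.27 ± 0.05 in dKO_PRMT1 against dKO_EV (adjusted p = 5.44e-05) and by 0.26 ± 0.05 against WT_EV (adjusted p = 5.87e-05), calls that held under every alternative run. Of the 38 it alone was called between active and inactive PRMT1, 0.18 ± 0.05 higher in dKO_PRMT1 than in dKO_MUT (adjusted p = 0.0226). That last call was lost without any of the 4 libraries compared, at 0.15 without dKO_MUT replicate 1 (adjusted p = 0.243), 0.21 without dKO_MUT replicate 2 (0.061), 0.22 without the first dKO_PRMT1 library (0.0523) and 0.13 without the other (0.431). In dKO_EV against WT_EV its difference was -0.01, with a 95% interval of -0.11 to 0.08.

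The kinases of the checkpoint did not pass in any comparison. Atr (chromosome 9, 95857597 to 95951644) had 52.8 and 49.9 CPM in WT_EV, 42.2 and 45.8 CPM in dKO_EV, 49.8 and 42.5 CPM in dKO_MUT and, in dKO_PRMT1, 42.4 and 45.1 CPM. Atm (chromosome 9, 53437122 to 53536671) had 55.0 and 50.7 CPM in WT_EV, 44.6 and 46.4 CPM in dKO_EV, 46.0 and 46.0 CPM in dKO_MUT and, in dKO_PRMT1, 40.8 and 53.3 CPM. Chek1 (chromosome 9, 36708482 to 36726658), the effector kinase of ATR, had 34.3 and 34.1 CPM in WT_EV, 28.8 and 29.8 CPM in dKO_EV, 34.0 and 27.7 CPM in dKO_MUT and, in dKO_PRMT1, 29.4 and 28.5 CPM. In dKO_EV against WT_EV none of these 3 kinases passed. Their differences were -0.22 ± 0.09 for Atr (adjusted p = 0.112), -0.22 ± 0.10 for Atm (0.15) and -0.22 ± 0.11 for Chek1 (0.205). Their differences between dKO_PRMT1 and dKO_EV were -0.01, 0.05 and -0.02. Chek2, the effector kinase of ATM, had 22.9 and 26.9 CPM in WT_EV and 29.4 and 25.3 CPM in dKO_EV, and those groups overlapped. Its difference went the other way, at 0.13 ± 0.12 (adjusted p = 0.555).

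Among the remaining checkpoint genes, Clspn had 94.5 and 79.4 CPM in dKO_EV and 97.4 and 101.8 CPM in dKO_PRMT1, a difference of 0.20 ± 0.07 just beyond the threshold (adjusted p = 0.0596). It was called there by limma voom and, without dKO_EV replicate 1, by edgeR. Over the 8 libraries the clamp subunits Hus1 and Rad1 ran from 36.8 to 42.5 CPM and from 12.5 to 15.2 CPM. The clamp loader Rad17 ran from 39.7 to 44.3 CPM and the ATR partner Atrip from 21.1 to 26.0 CPM.

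Fanca encodes a subunit of the Fanconi core complex. The gene (chromosome 8, 123268244 to 123318576, minus strand) had 34.2 and 35.4 CPM in WT_EV, 40.3 and 32.6 CPM in dKO_EV, 49.8 and 41.6 CPM in dKO_MUT and, in dKO_PRMT1, 49.3 and 43.6 CPM. The 4 libraries with either PRMT1 insert were above the 4 with the empty vector. Fanca rose by 0.34 ± 0.11 in dKO_MUT against dKO_EV (adjusted p = 0.0359), by 0.36 ± 0.11 in dKO_PRMT1 against dKO_EV (adjusted p = 0.0198), and against WT_EV by 0.40 ± 0.11 in dKO_MUT (adjusted p = 0.00648) and by 0.42 ± 0.11 in dKO_PRMT1 (adjusted p = 0.00333). Between dKO_PRMT1 and dKO_MUT the difference was 0.02, with a 95% interval of -0.19 to 0.24. The rise with the inactive mutant was lost without dKO_EV replicate 2 (0.19, adjusted p = 0.337) or dKO_MUT replicate 1 (0.20, 0.405) and in DESeq2 (0.0809), and that with active PRMT1 without dKO_EV replicate 2 (0.21, 0.273) or dKO_PRMT1 replicate 1 (0.27, 0.269). Against WT_EV the rise in dKO_MUT was lost without its replicate 1 (0.26, adjusted p = 0.213), as was that in dKO_PRMT1 (0.32, 0.115). Exons of Zfp276 on the opposite strand cover 17.1% of the counted length of Fanca, and the strand setting of the counting is not given in the sources used here. Zfp276 itself had 12.5 and 16.5 CPM in WT_EV, 15.4 and 15.9 CPM in dKO_EV, 18.7 and 16.8 CPM in dKO_MUT and, in dKO_PRMT1, 19.3 and 18.6 CPM, and its part in the Fanca counts was not tested. In all, 8 members shared exon bases with another gene. Among them, exons on the opposite strand cover 21.6% of the counted length of Fancl and 8.62% of that of Fanci. The part of those exons in the counts was not tested either.

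The other 11 Fanconi genes passed in no comparison. Fancd2 (chromosome 6, 113531682 to 113596285), the protein that the core complex modifies, had 37.0 and 35.5 CPM in WT_EV, 35.4 and 41.6 CPM in dKO_EV, 40.5 and 36.5 CPM in dKO_MUT and, in dKO_PRMT1, 38.3 and 45.7 CPM. Its partner Fanci (chromosome 7, 79392338 to 79450264) had 28.01 and 32.5 CPM in WT_EV, 31.6 and 30.8 CPM in dKO_EV, 32.1 and 33.3 CPM in dKO_MUT and, in dKO_PRMT1, 34.8 and 31.7 CPM. The largest difference of either was 0.21 ± 0.11, for Fancd2 in dKO_PRMT1 against WT_EV (adjusted p = 0.16). The core complex gene Fancg had 24.3 and 25.1 CPM in dKO_EV and 29.9 and 31.1 CPM in dKO_PRMT1, a difference of 0.30 ± 0.12 that missed the threshold (adjusted p = 0.0781). Slx4, the scaffold of the nucleases that unhook crosslinks, had 26.4 and 28.3 CPM in dKO_MUT and, in dKO_PRMT1, 34.3 and 35.2 CPM, a difference of 0.35 ± 0.11 (adjusted p = 0.106). The core complex gene Fancb, the only X-linked gene of the 38, had 9.50 and 11.3 CPM in WT_EV, 9.29 and 5.91 CPM in dKO_EV, 9.09 and 8.84 CPM in dKO_MUT and, in dKO_PRMT1, 12.4 and 7.89 CPM. Its replicates differed widely, and its difference of -0.47 ± 0.23 in dKO_EV against WT_EV did not pass (adjusted p = 0.184). The ubiquitin-conjugating enzyme Ube2t ran from 8.78 to 13.5 CPM, the ligase subunit Fancl from 9.60 to 13.3 CPM, the core subunits Fancc from 8.23 to 11.3 CPM and Fance from 18.4 to 26.4 CPM, the DNA translocase Fancm from 24.4 to 29.3 CPM and the helicase Brip1 from 33.7 to 39.3 CPM.

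**Figure D3:**
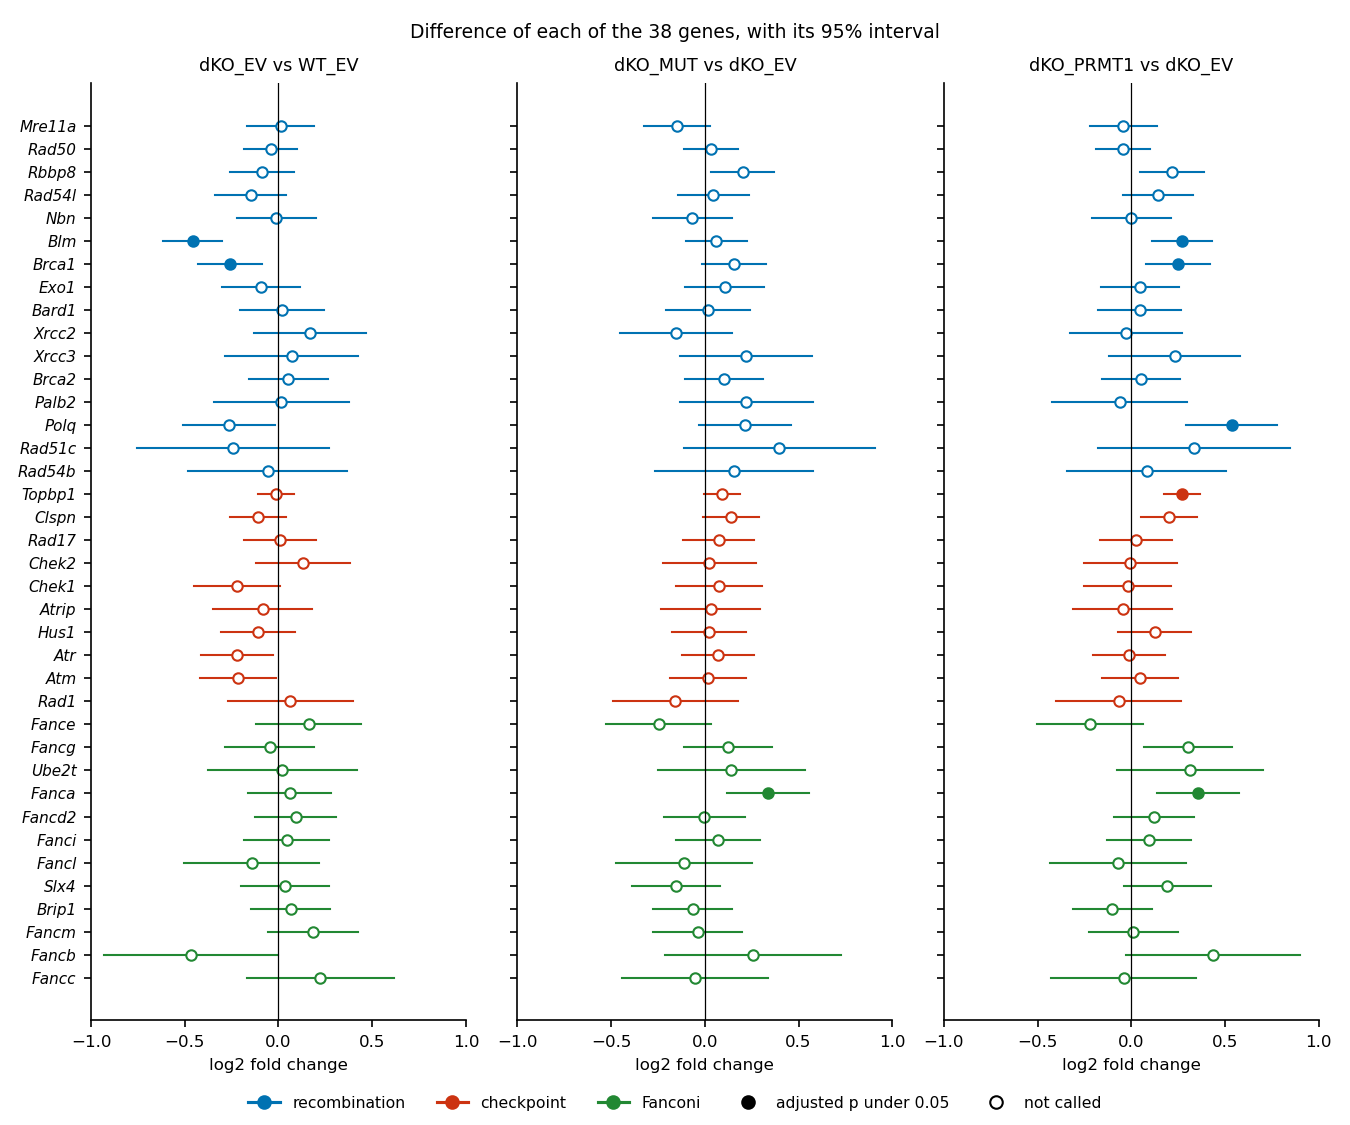
Log2 fold change of each of the 38 genes with its 95% interval (line) in dKO_EV against WT_EV, dKO_MUT against dKO_EV and dKO_PRMT1 against dKO_EV, ordered within each role by RPKM. Filled points have an adjusted p under 0.05: Blm and Brca1 on the left, Fanca in the middle, and Polq, Topbp1, Blm, Brca1 and Fanca on the right.

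Counted by comparison, 2 of the 38 were lower in dKO_EV than in WT_EV (5.26%) and 0 were higher, against 7.00% of all genes lower and 8.44% higher. Both were recombination genes. At an unadjusted p under 0.05, 6 of the 38 were lower and 0 higher, against 1627 lower and 1786 higher of the 12744 genes tested. Both DESeq2 and limma voom called 0 higher. The median log2 fold change was -0.01 over the 38 genes and 0.00 over all genes tested, and by role it was -0.05 for recombination, -0.10 for the checkpoint and 0.05 for the Fanconi genes. These medians by role rested on single libraries: without dKO_EV replicate 1 they were -0.14, -0.12 and -0.02, so that the Fanconi value turned sign, and without dKO_EV replicate 2 they were -0.001327, -0.05 and 0.10. Without WT_EV replicate 1 the checkpoint and Fanconi values were -0.06 and 0.10, and without WT_EV replicate 2 the Fanconi value was 0.03. The 2 became 1 without either WT_EV library or dKO_EV replicate 2, and 4 without dKO_EV replicate 1, where Clspn and Fancb were added. The median over the 38 was -0.08 without dKO_EV replicate 1.

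In dKO_PRMT1 against dKO_EV, 5 of the 38 rose (13.2%), against 5.96% of all genes higher, and 0 fell, against 8.67% lower. The 5 were 3 of 16 recombination genes, 1 of 10 checkpoint genes and 1 of 12 Fanconi genes. At an unadjusted p under 0.05, 8 were higher and 0 lower, against 1549 higher and 1768 lower of the 12744 genes tested. DESeq2 and limma voom called 4 and 7 of the 38 higher and 0 lower. The median was 0.05 over the 38, and 0.07, 0.01 and 0.11 for the recombination, checkpoint and Fanconi genes. Without dKO_PRMT1 replicate 1 these values by role were 0.16, 0.05 and 0.05, without dKO_PRMT1 replicate 2 they were 0.07, 0.0002167 and 0.08, without dKO_EV replicate 1 they were 0.14, 0.01 and 0.07, and without dKO_EV replicate 2 they were 0.04, 0.07 and 0.08. The order of the 3 roles therefore changed with the library left out. The count was 2 without dKO_EV replicate 2 or dKO_PRMT1 replicate 1 (Polq and Topbp1), 3 without dKO_PRMT1 replicate 2, 8 without dKO_EV replicate 1, and 2 at a threshold of 0.01. This comparison and that of dKO_EV with WT_EV share the dKO_EV libraries. Blm and Brca1 were called in both, lower in dKO_EV than in WT_EV and higher in dKO_PRMT1 than in dKO_EV.

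In dKO_MUT against dKO_EV only Fanca was called, 1 higher (2.63%) and 0 lower, against 4.24% and 7.08% of all genes. At an unadjusted p under 0.05, 2 were higher and 0 lower, against 1348 higher and 1655 lower of the 12744 genes tested. DESeq2 called 0 of the 38 in either direction. The count was 0 without dKO_EV replicate 2 or dKO_MUT replicate 1 and 3 without dKO_EV replicate 1. The direct comparison of dKO_PRMT1 with dKO_MUT called Topbp1 higher and 0 lower, against 1.43% and 1.68% of all genes. At an unadjusted p under 0.05, 4 were higher and 0 lower, against 825 higher and 864 lower of the 12744 genes tested. DESeq2 and limma voom each called 1 of the 38 higher and 0 lower. The count was 0 without any of the 4 libraries compared. Against WT_EV, dKO_MUT had Fanca higher and Blm lower, against 9.41% and 9.96% of all genes. dKO_PRMT1 had Fanca and Topbp1 higher and 0 lower against WT_EV, where 11.0% of all genes were higher and 12.2% lower. For that comparison 4 of the 38 were higher and 3 lower at an unadjusted p under 0.05, against 2019 higher and 2139 lower of the 12744 genes tested. DESeq2 and limma voom called 0 of the 38 lower, and a fit of those 4 libraries alone called Blm and Atr lower. Without dKO_EV replicate 1 or replicate 2 the fit called Blm and Atr lower there as well, without dKO_PRMT1 replicate 2 it called Atm lower, and without dKO_PRMT1 replicate 1 Fanca was no longer called.

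The genes that were not called were bounded by their intervals. In dKO_EV against WT_EV the 95% interval lay within 1.5-fold in either direction for 33 of the 36 genes not called, and the exceptions were Rad51c, Fancb and Fancc. In dKO_PRMT1 against dKO_EV it did so for 30 of 33, with Rad51c, Fancb and Ube2t as the exceptions, and in dKO_MUT against dKO_EV for 35 of 37. The intervals of all genes not called, in all 6 comparisons, lay within 2-fold. Changes smaller than these bounds could not be resolved for the genes of low count.

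Other genes of the same pathways were read from a list of 72, all of them tested. This list was also chosen with earlier results of these data known. In dKO_PRMT1 against dKO_EV 9 rose (12.5%, against 5.96% of all genes) and 0 fell (against 8.67%), with a median of 0.09. At an unadjusted p under 0.05, 18 of the 72 were higher and 0 lower, against 1549 higher and 1768 lower of the 12744 genes tested. They included the resection nuclease Dna2 (0.28 ± 0.07, adjusted p = 0.00306), the RecQ helicase Recql5 (0.48 ± 0.11, 0.00195), the histone variant H2afx that marks breaks (0.18 ± 0.05, 0.00605) and the checkpoint factor Rhno1 (0.48 ± 0.14, 0.0189). The FANCD2 deubiquitinase Usp1 (0.15 ± 0.05, 0.0296) and its cofactor Wdr48 (0.23 ± 0.07, 0.0342) were the 2 Fanconi genes among them. In dKO_EV against WT_EV 2 rose and 2 fell (2.78% each, against 8.44% and 7.00% of all genes), with a median of 0.00. Dna2 (0.23 ± 0.07, 0.0169) and the translesion polymerase Rev1 (0.32 ± 0.11, 0.0499) rose, and Parp1, the sensor of single-strand breaks (-0.23 ± 0.05, 0.000707), and Trp53 (-0.16 ± 0.05, 0.0216) fell. In dKO_MUT against dKO_EV only Parp1 was called (1.39% higher, against 4.24% of all genes), at 0.16 ± 0.05 (adjusted p = 0.0254). Between dKO_PRMT1 and dKO_MUT Dna2 (0.24 ± 0.07, 0.0387) and the phosphatase Cdc25a (0.25 ± 0.07, 0.0236) were higher, 2.78% against 1.43% of all genes. Against WT_EV 8 rose (11.1%, near the 11.0% of all genes) and 2 fell (2.78%, against 12.2%) in dKO_PRMT1, where Dna2 had the smallest p (0.51 ± 0.07, 2.14e-07). In dKO_MUT 2 rose (2.78%, against 9.41%) and 0 fell (against 9.96%).

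Many of these genes are expressed chiefly in dividing cells, so lists for S phase (16 genes) and mitosis (20 genes) were measured beside them. Of the S phase genes 7 fell (43.8%, against 7.00% of all genes) and 0 rose (against 8.44%) in dKO_EV against WT_EV, with a median of -0.15. In dKO_PRMT1 against dKO_EV 7 of them rose (43.8%, against 5.96% of all genes) and 0 fell (against 8.67%), with a median of 0.14. Of the mitosis genes 3 fell (15%) and 0 rose in the first comparison and 8 rose (40%) and 0 fell in the other, with medians of -0.06 and 0.18. The summed S phase level was 4302 and 4337 CPM in WT_EV, 3902 and 3923 CPM in dKO_EV, 4087 and 4215 CPM in dKO_MUT and, in dKO_PRMT1, 4227 and 4259 CPM. Each library was also given the median over genes of the level centred on each gene, as log2(CPM + 0.5). For the 38 genes that value was -0.01 and 0.01 in WT_EV, -0.01 and -0.06 in dKO_EV, 0.02 and -0.02 in dKO_MUT, and 0.01 and 0.05 in dKO_PRMT1, and dKO_EV replicate 2 lay below the other 7. For the Fanconi genes both dKO_PRMT1 libraries (0.05 and 0.06) were above the other 6, which ran from -0.10 to 0.01. For the checkpoint genes both dKO_EV libraries (-0.07 and -0.05) were below the other 6. The same held for the recombination genes (-0.006 and -0.12), the S phase list (-0.10 and -0.07) and the mitosis list (-0.03 and -0.11). The part of cell division in the differences of Blm, Brca1, Polq, Topbp1 and Fanca was not tested.

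**Figure D4:**
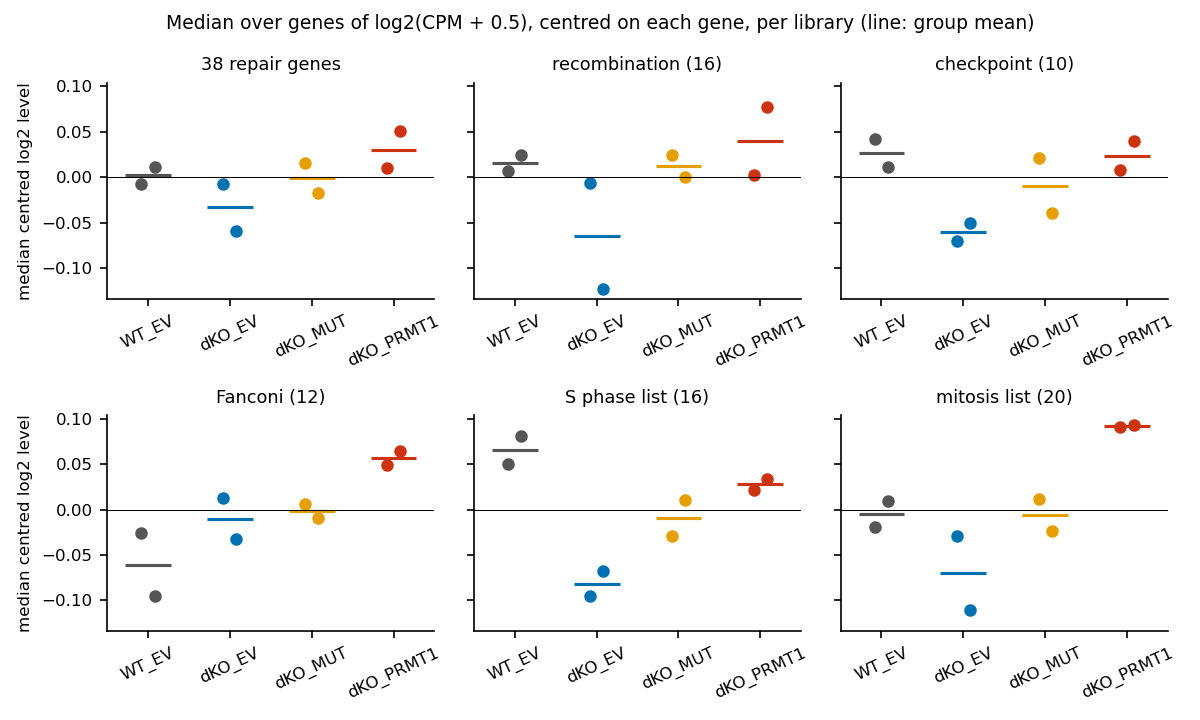
Median over the genes of a list of log2(CPM + 0.5) centred on each gene, for each library (points, n = 2 a group) and group mean (line). The 38 repair genes stay between -0.06 and 0.05, and they, the S phase list and the mitosis list each have their lowest library in dKO_EV.

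The promoters of Blm, Topbp1 and Fanca are printed because these genes had the smallest p in the joint test. Sequences are from RefSeq on GRCm38.p6, 5′ to 3′ on the strand of the gene, from 250 bases before to 50 bases after the start of transcription. Capitals mark matches on either strand to motifs of genes that cycle with cell division: the E2F site (TTTCCCGC, TTTGGCGC, TTTCGCGC or TTTGCCGC), the CCAAT box (CCAAT) and the CHR element (TTTGAA or TTTAAA). None of these motifs contains another.
Blm, chr7:80534949-80535248, minus strand: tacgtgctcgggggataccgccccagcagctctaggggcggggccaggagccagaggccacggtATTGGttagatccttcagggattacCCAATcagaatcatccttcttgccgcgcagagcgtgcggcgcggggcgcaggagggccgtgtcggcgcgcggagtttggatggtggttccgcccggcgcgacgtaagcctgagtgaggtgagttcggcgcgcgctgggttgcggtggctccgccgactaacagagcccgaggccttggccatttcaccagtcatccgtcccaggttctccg
Topbp1, chr9:103305077-103305376, plus strand: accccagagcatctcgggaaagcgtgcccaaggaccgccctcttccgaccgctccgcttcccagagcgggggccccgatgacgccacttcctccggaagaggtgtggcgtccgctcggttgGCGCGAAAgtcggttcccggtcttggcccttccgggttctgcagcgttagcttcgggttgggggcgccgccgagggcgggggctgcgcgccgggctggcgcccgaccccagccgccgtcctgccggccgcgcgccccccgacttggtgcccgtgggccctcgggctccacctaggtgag
Fanca, chr8:123318527-123318826, minus strand: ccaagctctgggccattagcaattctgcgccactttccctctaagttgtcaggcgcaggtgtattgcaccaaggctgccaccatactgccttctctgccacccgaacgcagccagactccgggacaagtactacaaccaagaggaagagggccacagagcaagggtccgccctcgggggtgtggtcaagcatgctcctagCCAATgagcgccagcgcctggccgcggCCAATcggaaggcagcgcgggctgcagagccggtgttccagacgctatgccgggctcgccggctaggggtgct

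The Blm window held 2 CCAAT boxes, read on opposite strands and starting at positions -186 and -161 relative to the start site of that window. That start site lies inside the counted Blm gene, whose 5′ end (80535119) falls within the printed window (80534949 to 80535248). The positions are therefore not counted from the outermost start of the counted gene. The Topbp1 window held 1 E2F match, on the strand opposite to the gene, and the Fanca window held 2 CCAAT boxes on the strand of the gene. Of the 38 genes 31 matched a promoter in the table, with 34 windows. An E2F match was in 8 of the 34 windows (23.5%), against 2.26% of all 32851 promoter windows of the same length. Rad51c was counted more than once among the 8, so these windows outnumber their genes. A CCAAT box was in 19 of the 34 windows (55.9%), against 37.4% of all windows, and a CHR element in 3 (8.82%), against 27.6%. The windows of all genes were not limited to genes expressed here and were not matched for base content. By role an E2F match was in 4 of 12 recombination windows, 3 of 11 checkpoint windows and 1 of 11 Fanconi windows. Among the genes called in any comparison, Topbp1 had an E2F match, Blm, Brca1 and Fanca had a CCAAT box without one, and Polq had a CHR element. A match is a description of these letters, and no binding was measured.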

How the data were processed

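RNA was sequenced from 8 libraries in 4 groups of 2. A micro-scale column kit gave the RNA and a directional kit the libraries, per the labels' protocols. The tools, per the submitters' processing notes, were featureCounts, STAR 2.7.6a and Trim Galore 0.6.6, with GRCm38 (mm10) as the genome. The annotation, the strand setting and the version of featureCounts are not stated in those notes. The authors deposited raw read counts per gene and a gene length, with no replicate pooled.

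The members and gene lists were chosen with earlier results of these data known. The test was the quasi-likelihood test of edgeR 4.0.16 (R 4.3.3), robust, after filterByExpr and TMM scaling, with all 8 libraries in one fit with group as the only term (4 residual degrees of freedom), adjusted by Benjamini-Hochberg over 12744 genes with a threshold of 0.05. A joint test compared all groups. CPM and RPKM use TMM-scaled library sizes. Standard errors were derived from each fold change divided by the root of its F statistic, and 95% intervals from the test's degrees of freedom. The steps were tested on simulated data.

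Named genes were every member called in at least 1 comparison, 8 members fixed by name, and up to 4 called genes of the other pathway lists per comparison (6 are given for dKO_PRMT1 against dKO_EV, so that its 2 Fanconi genes are shown). Rbbp8, Clspn, Fancg, Slx4 and Fancb were singled out after their values were seen, as were Zfp276 and Fsbp. As alternatives, each library was left out in turn, the threshold was set to 0.01, the replicate number was added as a block, only the groups compared were fitted, limma voom 3.58.1 and DESeq2 1.42.0 replaced edgeR, and the size factors and the count filter were changed. Replicates differed by more than sampling noise (chi-square per degree of freedom 3.65 to 6.43), so none was treated as a duplicate.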

Additional observations from a re-analysis of the deposited data

How the results depend on the processing

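Of 103 counts of called members under settings other than leaving out a library, 94 were within 1.5 times of the value reported. Many of the 94 are counts of 0 that stayed 0, such as the members higher in dKO_EV against WT_EV. That share therefore says little about how firm the calls are. The exceptions were the 2 members lower in dKO_EV against WT_EV, which became 1 with DESeq2, with the compared groups alone and at a threshold of 0.01, the 1 higher in dKO_MUT against dKO_EV, which became 0 under the same 3 settings, and, at 0.01, the 5 higher in dKO_PRMT1 against dKO_EV (2) and the 1 higher against dKO_MUT (0). With the compared groups alone 2 members were lower in dKO_PRMT1 against WT_EV, where 0 were reported. With each library left out in turn, these counts ran from 1 to 4, 0 to 3, 2 to 8, 0 to 1 and 0 to 2, the members higher in dKO_MUT and in dKO_PRMT1 against WT_EV from 0 to 1 and from 1 to 2, and those called by the joint test from 3 to 8. The median over the 38 ran from -0.0844 to -0.001177 in dKO_EV against WT_EV, from 0.02019 to 0.08235 in dKO_MUT against dKO_EV, from 0.02814 to 0.09099 in dKO_PRMT1 against dKO_EV and from 0.02461 to 0.0657 in dKO_PRMT1 against WT_EV. The cause of these shifts was not tested. No called gene changed direction under any alternative. Same-numbered replicates did not deviate together (correlations of -0.05 to 0.00), so the numbers are not taken as pairs, and with a replicate block 2 members were lower in dKO_EV against WT_EV, 5 higher in dKO_PRMT1 against dKO_EV and 1 higher in dKO_MUT against dKO_EV, with no member call changed. With 2 libraries a group and counts as low as 76 in a library (Rad51c), modest changes of the low genes could not be resolved.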
